A study of Mus musculus with 18 samples.

Results

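The amino acid transporter families described here are the genes whose symbols name a member of the solute carrier families Slc1, Slc6, Slc7, Slc36, Slc38 or Slc43, taken by symbol alone. There were 58 such genes among the 30172 genes of the files, of which 7 belong to Slc1, 19 to Slc6, 14 to Slc7, 4 to Slc36, 11 to Slc38 and 3 to Slc43. Whole ovaries of wild-type C57BL/6J F1 females were collected at postnatal day 3 (Pd3), 7 (Pd7) or 21 (Pd21). The dams of the F1-HHcy groups ate a high-methionine diet with 3% methionine, meant to raise homocysteine, and the dams of the F1-Control groups ate normal chow. By the labels the high-methionine diet began 4 weeks ahead of mating and went on through pregnancy and nursing. The paper describes a longer time on the diet ahead of mating. Each of the 6 groups of diet and day had 3 RNA sequencing libraries, 18 in all. Pd3 and Pd7 libraries are labelled batch 1 and Pd21 libraries batch 2, so a change between Pd7 and Pd21 cannot be told apart from the batch. That the replicates are separate animals is not stated, so p-values measure the spread between these libraries.

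Solute carriers move amino acids across membranes, each family with its own way of driving transport. Slc1 and Slc6 proteins use the sodium gradient to take up acidic or neutral amino acids, glycine, taurine, creatine and some transmitters, and Slc38 proteins take up small neutral amino acids such as glutamine and alanine. Several Slc7 proteins are light chains that reach the plasma membrane only when bound to a heavy chain, Slc3a2 or Slc3a1, and exchange one amino acid for another, methionine among those carried by Slc7a5. In the ovary, growing oocytes are known to receive amino acids from granulosa cells through gap junctions, with Slc38a3 among the transporters of the granulosa side.

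Levels are in FPKM, fragments scaled to gene length and to the library's total, so that they can be compared between genes. Between 33617323 and 39391923 whole fragments per library could be recovered from the values. Statistics cover genes that reached 1 FPKM in 3 or more of the 18 libraries, as 14607 genes and 36 of the 58 members did, so counts below are of those 36 and not of the families as a whole. The other 22 stayed below it, 11 of them in Slc6, and include Slc1a2, Slc1a7, Slc6a2, Slc6a3, Slc6a5, Slc6a11, Slc6a12, Slc6a13, Slc6a16, Slc6a18, Slc6a19, Slc6a21, Slc7a3, Slc7a9, Slc7a10, Slc7a13, Slc7a14, Slc7a15, Slc36a2, Slc36a3 and Slc38a11. Fold changes are on the scale of log2(FPKM + 1), which understates the change of genes near 1 FPKM, and a gene rose or fell where limma gave an adjusted p under 0.05 over all 14607 genes. A p that misses the threshold does not show that values did not differ. With 3 libraries against 3, an exact 2-sided permutation test of a single gene cannot go below p = 0.1.

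The ovary used a few members heavily and most of the others at a few FPKM. Slc38a2, a sodium-coupled carrier of small neutral amino acids, had the highest mean over the 18 libraries at 51.3 FPKM (range 30.8 to 65.5). Slc7a5, the large neutral amino acid exchanger LAT1, followed at 32.4 FPKM (15.7 to 84.6), then Slc38a10 at 25.9 (19.6 to 32.7), Slc43a3 at 22 (14.4 to 29.9995) and the glycine transporter Slc6a9 at 19.6 (13.8 to 30.3). This order is of means over all groups. Within groups, Slc38a2 had the highest mean in each of the 6, while Slc7a5 came next only in F1-HHcy at Pd7 and in both groups of Pd21, and had 3 members above it in the other 3 groups. The range of each of these 5 genes overlaps that of the next in this order, while that of Slc38a2 lies above those of Slc43a3 and Slc6a9. The most abundant Slc1 member was Slc1a5 at 10.1 FPKM and the most abundant Slc36 member Slc36a4 at 7.95 FPKM. Summed over all 58 members, the group means were 269.6 ± 6.55 FPKM (SD, n = 3) for F1-Control and 286 ± 12.7 FPKM for F1-HHcy ovaries of Pd3. At Pd7 they were 261 ± 40.4 and 312 ± 9.5 FPKM, and at Pd21 352 ± 38.3 and 321 ± 30.1 FPKM. F1-Control Pd7 replicate 2 held the highest FPKM sum over all genes of the 18 libraries, 532003 beside 431696 and 437782 in its group. Slc7a5, Slc6a6, Slc38a5, Slc7a4 and Slc38a9 were lowest there among the F1-Control libraries of Pd7. Pairs of libraries within a group correlated over genes at 0.945 to 0.994, lowest in F1-HHcy Pd3.

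**Figure D1:**
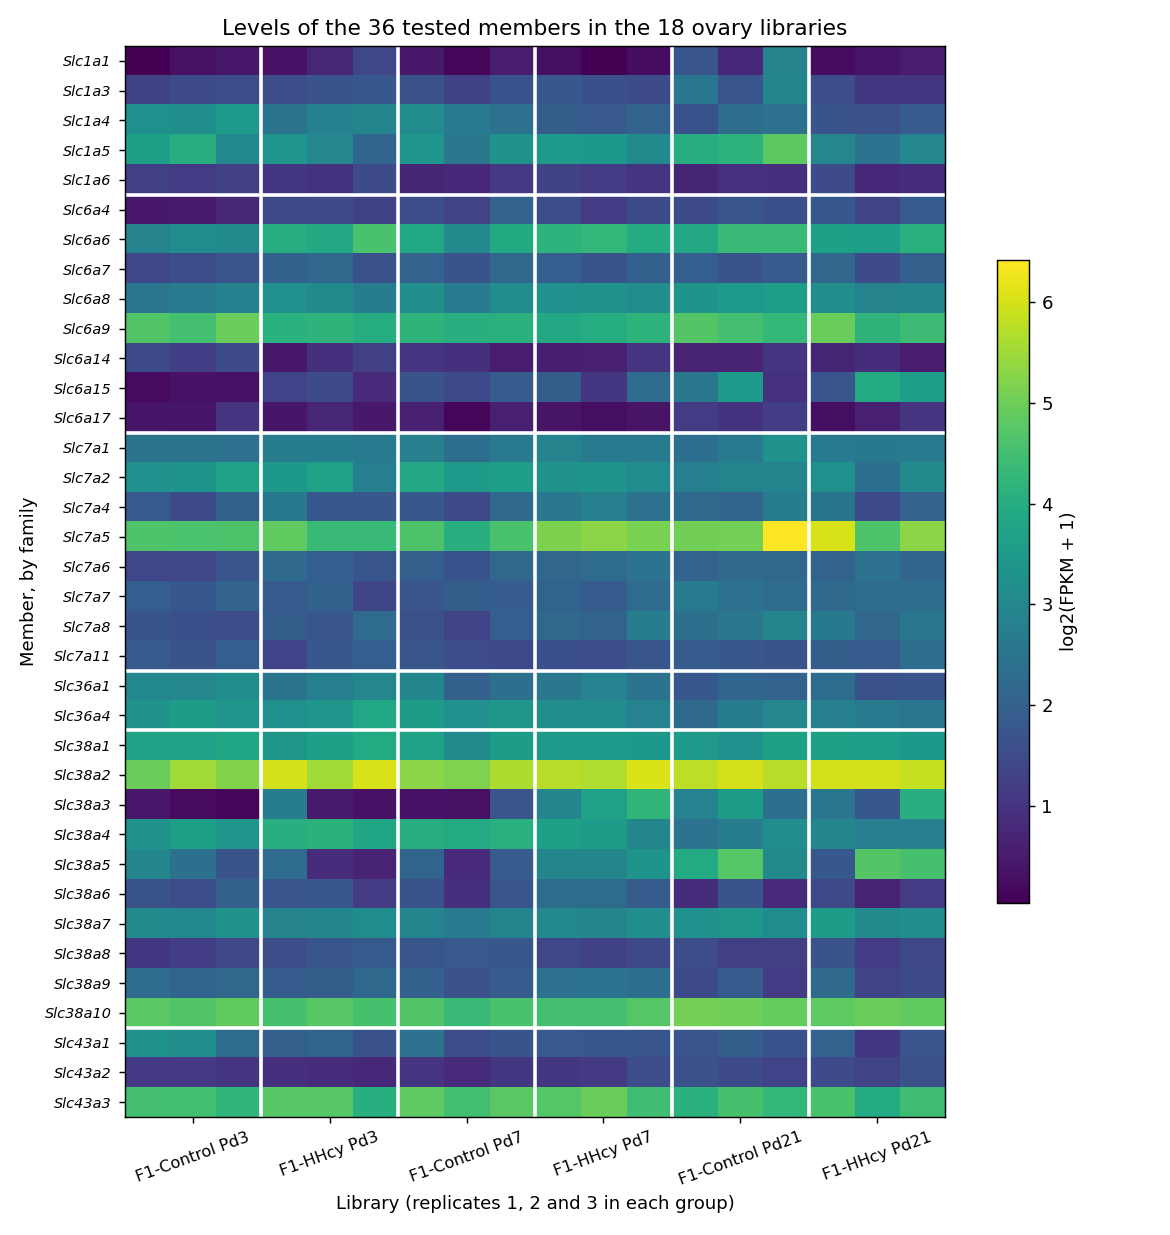
Level of each of the 36 tested members (rows, by family) in each of the 18 libraries (columns, 3 per group), as log2(FPKM + 1) in colour. Slc38a2 has the highest mean in each group, while Slc7a5 comes next only in F1-HHcy of Pd7 and both groups of Pd21. Slc38a3 is dark in the F1-Control libraries of Pd3 and bright in the F1-HHcy libraries of Pd7.

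Markers of ovarian cells were present in every library, with Foxl2 of granulosa cells at 45.7 to 195 FPKM and Ddx4 of germ cells at 3.27 to 21.9 FPKM. Markers of other cells differed between the groups and are given here because several members move with them. The 7 erythroid markers, led by Hbb-bs, summed to 11288, 6407 and 3941 FPKM in F1-Control and 862, 1108 and 784 FPKM in F1-HHcy at Pd3, and to 5791, 1555 and 925 FPKM in F1-Control and 287, 502 and 429.8 FPKM in F1-HHcy at Pd7. Granulocyte markers, 5 genes led by S100a9, summed at Pd3 to 1027, 265 and 447 FPKM in F1-Control against 8.86, 8.68 and 139.9 FPKM in F1-HHcy. Both sums were higher in each F1-Control library than in each F1-HHcy library at Pd3, and 7 of the 7 erythroid markers and 0 of the 5 granulocyte markers fell by the limma test. Other sums were higher in each F1-HHcy library of Pd3 than in each F1-Control library. Oocyte markers, 12 genes led by Zp2, summed to 831, 905 and 1133 FPKM in F1-Control and 1576, 1995 and 1449 FPKM in F1-HHcy, granulosa markers to 174, 171 and 167 against 522, 314 and 213 FPKM, and the 5 stroma markers, led by Dcn, to 358, 495 and 439 against 821, 880.1 and 668 FPKM. Of the oocyte list, Gdf9, Bmp15, Zp1, Zp2, Zp3 and Oosp1 were higher in each F1-HHcy library. Ddx4, Dazl and Sohlh1 ran the other way, lower in each (Sohlh1 at 92.5, 89.8 and 96.5 against 18.7, 42.7 and 67.9 FPKM), as did Kitl of the granulosa list. Endothelium markers summed to 41.4, 58.1 and 53.6 against 103, 84.2 and 74.2 FPKM, and macrophage and adipocyte sums did not overlap either. Of these lists 1 granulosa and 1 stroma marker rose at Pd3, as did 1 theca marker.

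Theca and steroidogenic markers, 7 genes led by Hsd3b1, were higher in F1-HHcy at Pd7, with sums of 233, 301 and 468 FPKM in F1-Control and 1196, 1230 and 1172 FPKM in F1-HHcy, while at Pd3 they summed to 129.7, 107 and 162 against 713, 369.9 and 89.2 FPKM and overlapped. All 7 theca markers rose at Pd7. Granulosa markers, 10 genes led by Inha and with 3 that rose, summed to 226, 255 and 525 FPKM in F1-Control and 599.9, 561 and 935 FPKM in F1-HHcy at Pd7. At Pd21 the 5 oviduct secretory markers, led by Krt7 over all libraries, summed to 273, 75.9 and 424 FPKM in F1-Control against 23.1, 9.53 and 24.7 FPKM in F1-HHcy, with Ovgp1 alone at 216, 37.5 and 365 against 2.1, 0.37 and 1.12 FPKM. Foxj1, the switch gene of multiciliated cells, measured 99.1, 20.4 and 49.7 FPKM in the F1-Control and 0.371, 0.441 and 0.248 FPKM in the F1-HHcy libraries of Pd21. The 8 multiciliated markers, led by Ccno, summed to 311, 129 and 186 against 107, 79.5 and 101 FPKM, and of the tested ones 6 of 7 fell, as did 2 of 4 oviduct markers. Ccno itself was not lower (98.2, 69.9 and 75.9 against 98.9, 74.8 and 95.8 FPKM) and made up most of the F1-HHcy sums. Foxj1 and Ovgp1 were thus near 0 in all 3 F1-HHcy libraries of Pd21 and high in all 3 F1-Control libraries. The adipocyte marker Fabp4 reached 227 FPKM in F1-Control Pd21 replicate 3. In bulk libraries, fewer cells of a type and less RNA per cell cannot be told apart.

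**Figure D2:**
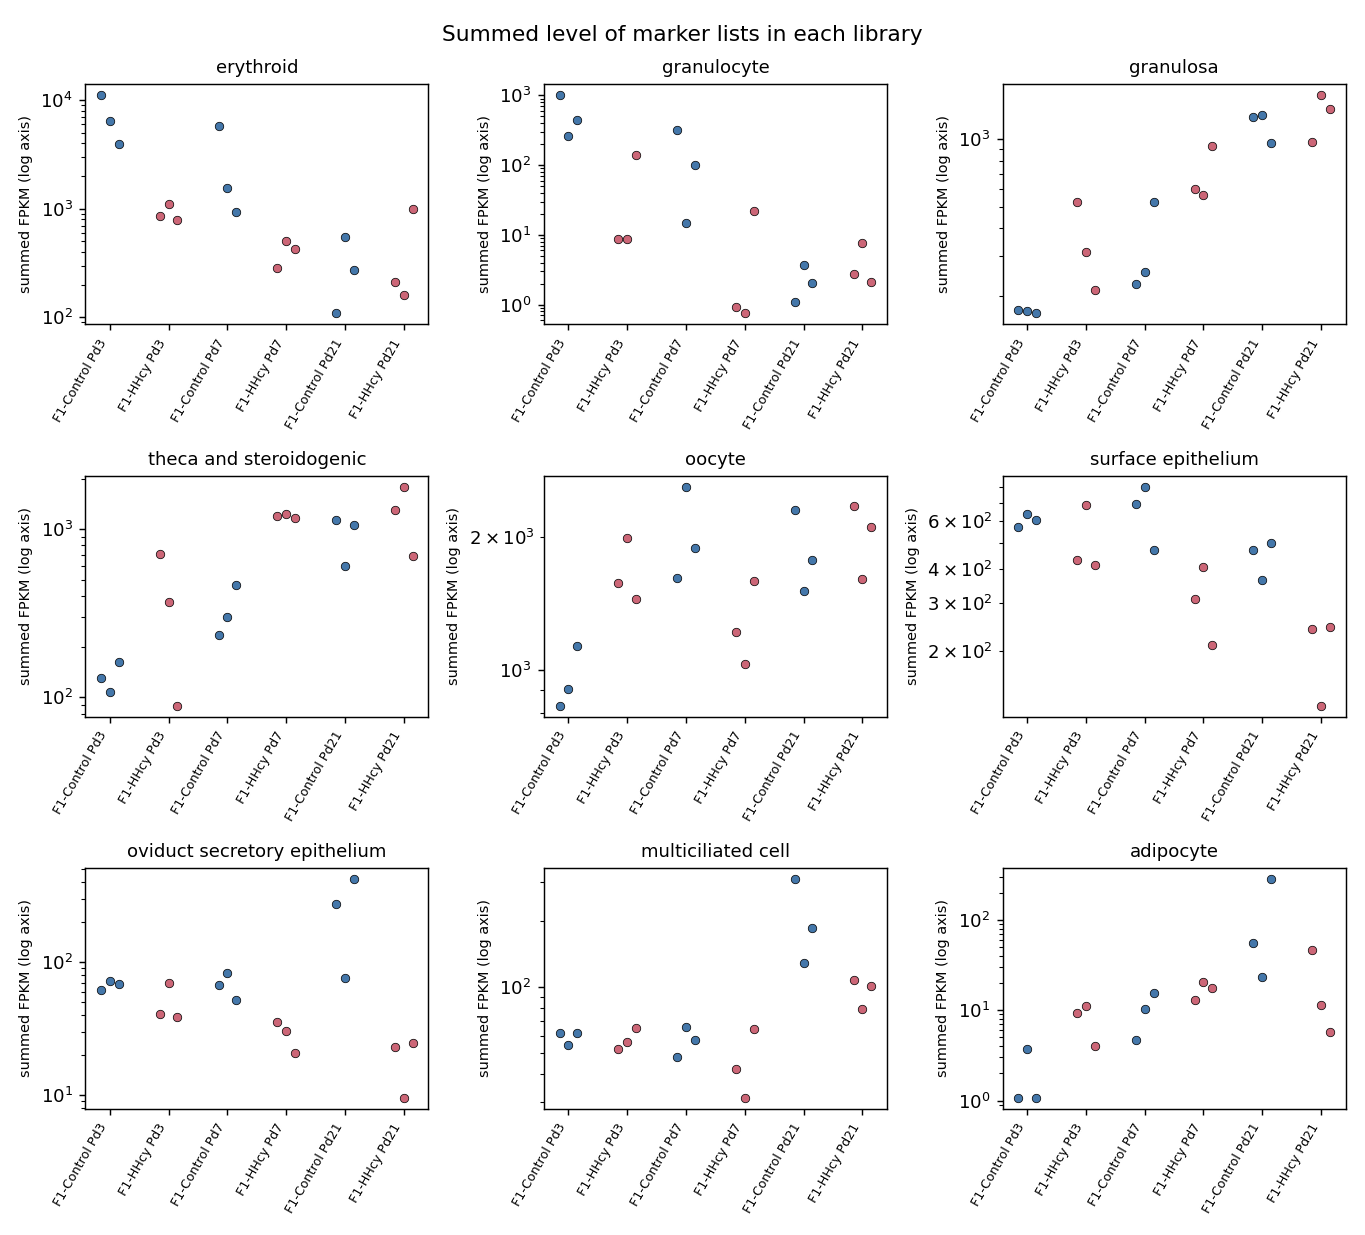
Summed FPKM (log axis) of 9 marker lists in each library, 3 points per group, F1-Control in blue and F1-HHcy in red. Erythroid and granulocyte sums are highest in F1-Control at Pd3, theca sums separate the groups at Pd7, and oviduct and multiciliated sums are highest in F1-Control at Pd21.

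The diet comparison asks which members differ between F1-HHcy and F1-Control ovaries of the same day. At Pd3, 2 of the 36 members rose, Slc6a4 and Slc6a6, and 0 fell, where 1.05% of all tested genes rose and 0.808% fell. Members with an unadjusted p under 0.05 numbered 7 higher and 4 lower on that day, beside 10.4% and 11.8% of all genes, and limma-voom called 0 lower as well. At Pd7, 5 members rose, Slc38a3, Slc38a5, Slc7a5, Slc38a9 and Slc7a4, against 5.05% of all genes, and 1 fell, Slc1a4, against 5.48%, while 9 were higher and 5 lower at an unadjusted p under 0.05 (14.9% and 16% of all genes). At Pd21 only Slc1a5 fell, where 1.94% of all genes did, and 0 of 14607 genes rose (0%), and 0 members rose by limma-voom. At an unadjusted p under 0.05, 0 members were higher and 5 lower on that day, beside 0.301% and 6.54% of all genes. These member shares rest on few genes and nothing particular to the families is read from them.

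The groups did not overlap for 12 of the 36 members at Pd3, 16 at Pd7 and 4 at Pd21, beside 27.9%, 38.8% and 10.6% of all tested genes. By the criterion printed above the study's volcano plots, from where it was read, which takes unadjusted p below 0.05 and a log2 change larger than 0.58 either way, 4 members were higher and 2 lower at Pd3 (5.37% and 4.33% of all genes), 7 higher and 2 lower at Pd7 (8.57% and 7.53%), and 0 higher and 3 lower at Pd21 (0.0822% and 4.83%). The median log2 fold change of the members was -0.05 at Pd3, 0.11 at Pd7 and -0.05 at Pd21, beside -0.01, -0.01 and -0.01 over all tested genes. With no filter on low values, 0 members passed on any day. Where leaving out 1 library ended a call, this is given with the gene.

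**Figure D3:**
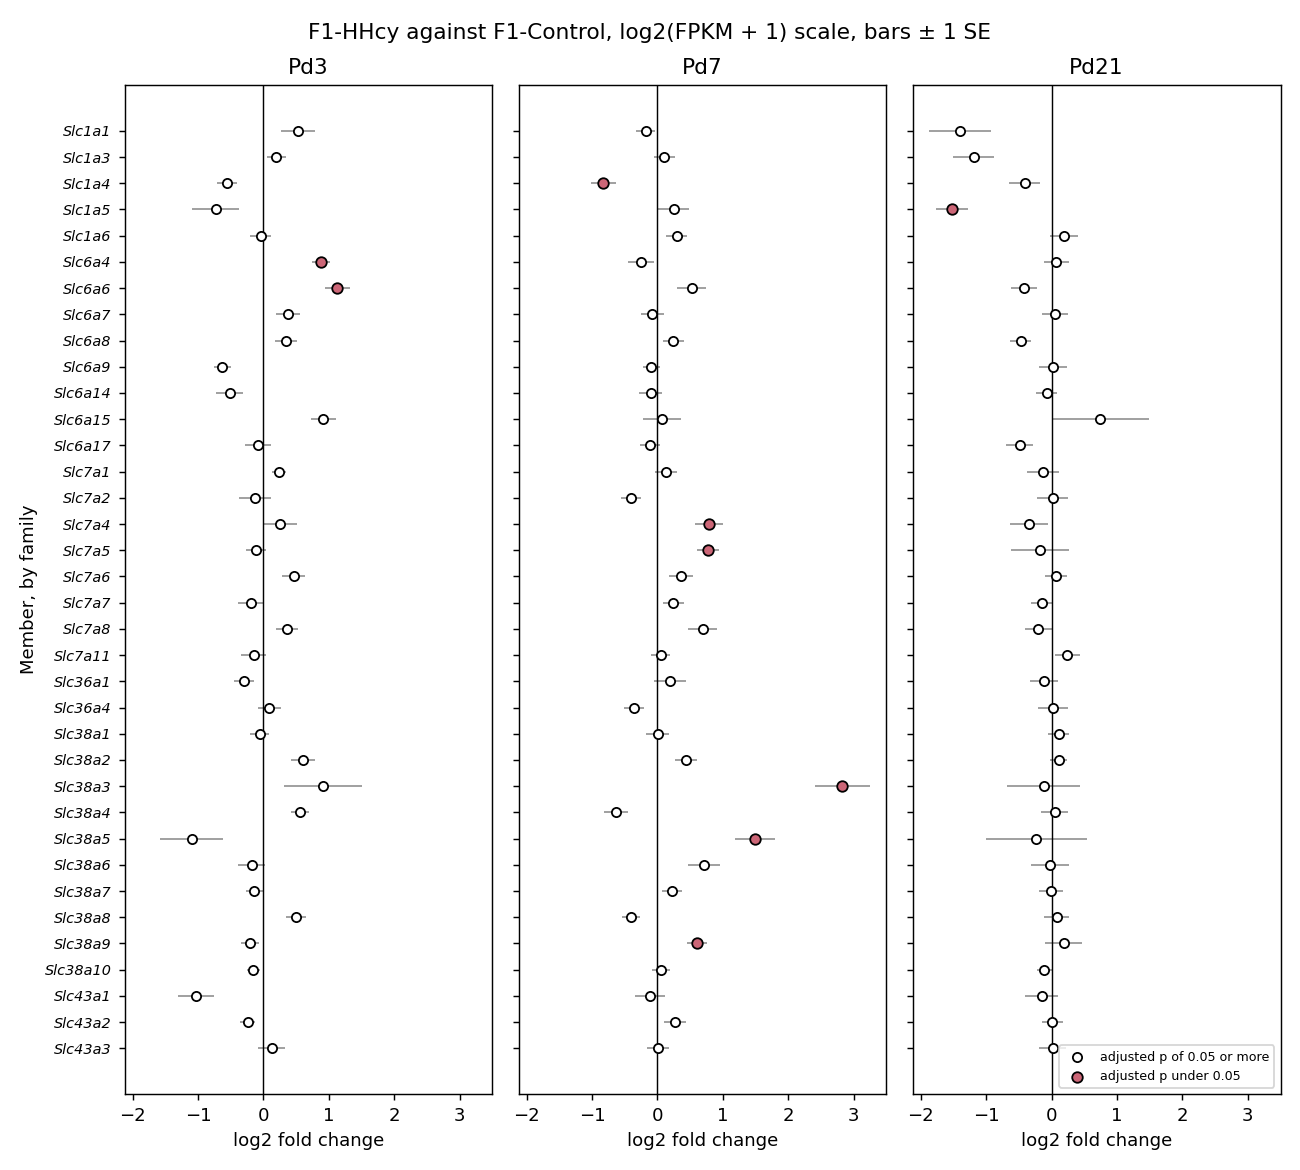
Log2 fold change of F1-HHcy against F1-Control (log2(FPKM + 1) scale) for the 36 tested members at Pd3, Pd7 and Pd21, with bars of 1 SE and filled points where the adjusted p was under 0.05. Slc38a3 at Pd7 has the highest value, 2.83, and Slc1a5 at Pd21 the lowest, -1.52.

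Slc1a4 and Slc1a5 exchange small neutral amino acids such as serine and alanine. Slc1a4 (chromosome 11, 20302180 to 20332713, minus strand of GRCm38) has a start region that holds the amino acid response motif, and it is printed because Slc1a4 was the single member that fell at Pd7. The motif was searched as TGATGNAA on both strands (TTNCATCA on the other), a kind of element that ATF4 is known to bind, in windows of 250 bases before to 50 bases after the gene start from RefSeq GRCm38.p6. It was chosen for display after 8 motifs had been searched and the members' values seen. Matches were found for 4 of the 41 members with a window (9.76%) and for 4.51% of 27025 genes. Slc1a5, Slc6a6, Slc7a4, Slc7a5 and Slc38a3, which passed in a diet comparison, had no window and could not be searched. There were 62 windows for the 41 members and 32851 for the 27025 genes, and a match in any window counted. Members thus had more windows per gene, and no enrichment is read from the shares. Capitals mark the match, 4 bases before the gene start of Slc1a4 (match start at -4), on chr11:20332664-20332963, minus strand.

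Slc1a4 promoter: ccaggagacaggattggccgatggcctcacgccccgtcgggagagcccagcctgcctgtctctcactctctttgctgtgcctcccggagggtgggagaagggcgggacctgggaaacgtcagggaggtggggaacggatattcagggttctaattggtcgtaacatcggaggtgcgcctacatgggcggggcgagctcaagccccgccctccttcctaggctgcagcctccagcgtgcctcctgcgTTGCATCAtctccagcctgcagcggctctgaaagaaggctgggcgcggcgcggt

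At Pd7, Slc1a4 measured 7.69, 5.47 and 4.47 FPKM in F1-Control and 2.78, 2.54 and 3.11 FPKM in F1-HHcy, so that each F1-HHcy library lay below each F1-Control library. It fell (log2 fold change -0.83 ± 0.19 (SE), limma adjusted p = 0.0312). In the same comparison 5 of the 12 oocyte markers fell and 2 rose (sums of 1619, 2602 and 1886 FPKM in F1-Control against 1220, 1033 and 1595 FPKM in F1-HHcy), 4 of the 6 surface epithelium markers fell (695, 803 and 469 against 309, 407 and 209.9 FPKM), and so did 4 of 7 erythroid and 2 of 4 tested oviduct markers. The part of these cells in the fall of Slc1a4 was not tested. Leaving out any 1 library other than F1-Control replicate 3 ended the call, with log2 fold changes of -0.98 to -0.64 and adjusted p up to 0.117 (limma). At Pd3 the values were 8.46, 8.21 and 10.01 FPKM against 4.58, 6.16 and 6.61 FPKM, again with no overlap (log2 fold change -0.55 ± 0.16 (SE), limma adjusted p = 0.111), and passed without F1-HHcy replicate 3 (-0.64, limma adjusted p = 0.0324). At Pd21 the values were 2.15, 4 and 4.39 against 2.18, 2.05 and 2.71 FPKM and overlapped. The lower level of Slc1a4 in F1-HHcy at Pd3 stood beside lower erythroid and granulocyte sums. Ddx4, Dazl and Sohlh1 were lower there too, while the sum of the oocyte markers was higher. Among the F1-Control libraries of Pd3, however, replicate 3 held the most Slc1a4 and the lowest erythroid sum. The part of these cells in the result was not tested.

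Slc1a5 (ASCT2, chromosome 7, 16781340 to 16798274, plus strand) is a sodium-dependent glutamine exchanger. It measured 15.3, 16.8 and 27.3 FPKM in F1-Control and 6.93, 4.49 and 6.93 FPKM in F1-HHcy at Pd21, and each control library lay above each F1-HHcy library. Slc1a5 fell (log2 fold change -1.52 ± 0.25 (SE), limma adjusted p = 0.0241), and its mean FPKM was 0.309 times that of F1-Control. The call was lost without any single F1-HHcy library and without F1-Control replicate 3, which held the highest value, with log2 fold changes of -1.68 to -1.28 and adjusted p up to 0.0909 (limma). Groups overlapped at Pd3 (11.5, 15.1 and 7.01 against 9.22, 6.96 and 3.33 FPKM) and at Pd7 (9.54, 4.95 and 8.78 against 10.2, 9.89 and 7.39 FPKM). Oviduct, multiciliated and surface epithelium sums were higher in the same 3 control libraries of Pd21, the last at 470, 365 and 497 against 240, 125 and 245 FPKM. Of the surface epithelium markers 0 were called on that day, and 1 smooth muscle marker fell. The part of these cells in this result was not tested.

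Glutamate and aspartate carriers of Slc1 were low. Fitted with all 18 libraries in 1 model, Slc1a3 (-1.19, limma adjusted p = 0.00379) and Slc1a1 (-1.40, limma adjusted p = 0.0452) passed at Pd21. In that day's 6 libraries alone they did not. Slc1a1 reached 1 FPKM in only 3 libraries, F1-Control Pd21 replicates 1 and 3 and F1-HHcy Pd3 replicate 3. It thus entered the tests mostly through the group where it was high, and no support is drawn from its calls at Pd21. Slc1a3 (GLAST) measured 4.86, 2.36 and 6.63 FPKM in F1-Control and 1.92, 1.11 and 1.05 FPKM in F1-HHcy at Pd21, with no overlap and no call (log2 fold change -1.19 ± 0.31 (SE), limma adjusted p = 0.173). Slc1a1 (EAAC1) measured 2.33, 0.669 and 6.45 FPKM against 0.178, 0.326 and 0.441 FPKM on that day and did not overlap (log2 fold change -1.40 ± 0.47 (SE), limma adjusted p = 0.393). Without F1-Control Pd21 replicate 2, the lowest control of both genes, each passed, Slc1a3 at a log2 fold change of -1.52, limma adjusted p = 0.0158, and Slc1a1 at -1.93, limma adjusted p = 0.0237. That library also held the least Ovgp1 and Foxj1 and the lowest surface epithelium sum of the 3 controls. The part of these cells in the values was not tested. Slc1a6, the other tested member of this role, ranged from 0.614 to 1.83 FPKM and did not pass on any day.

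**Figure D4:**
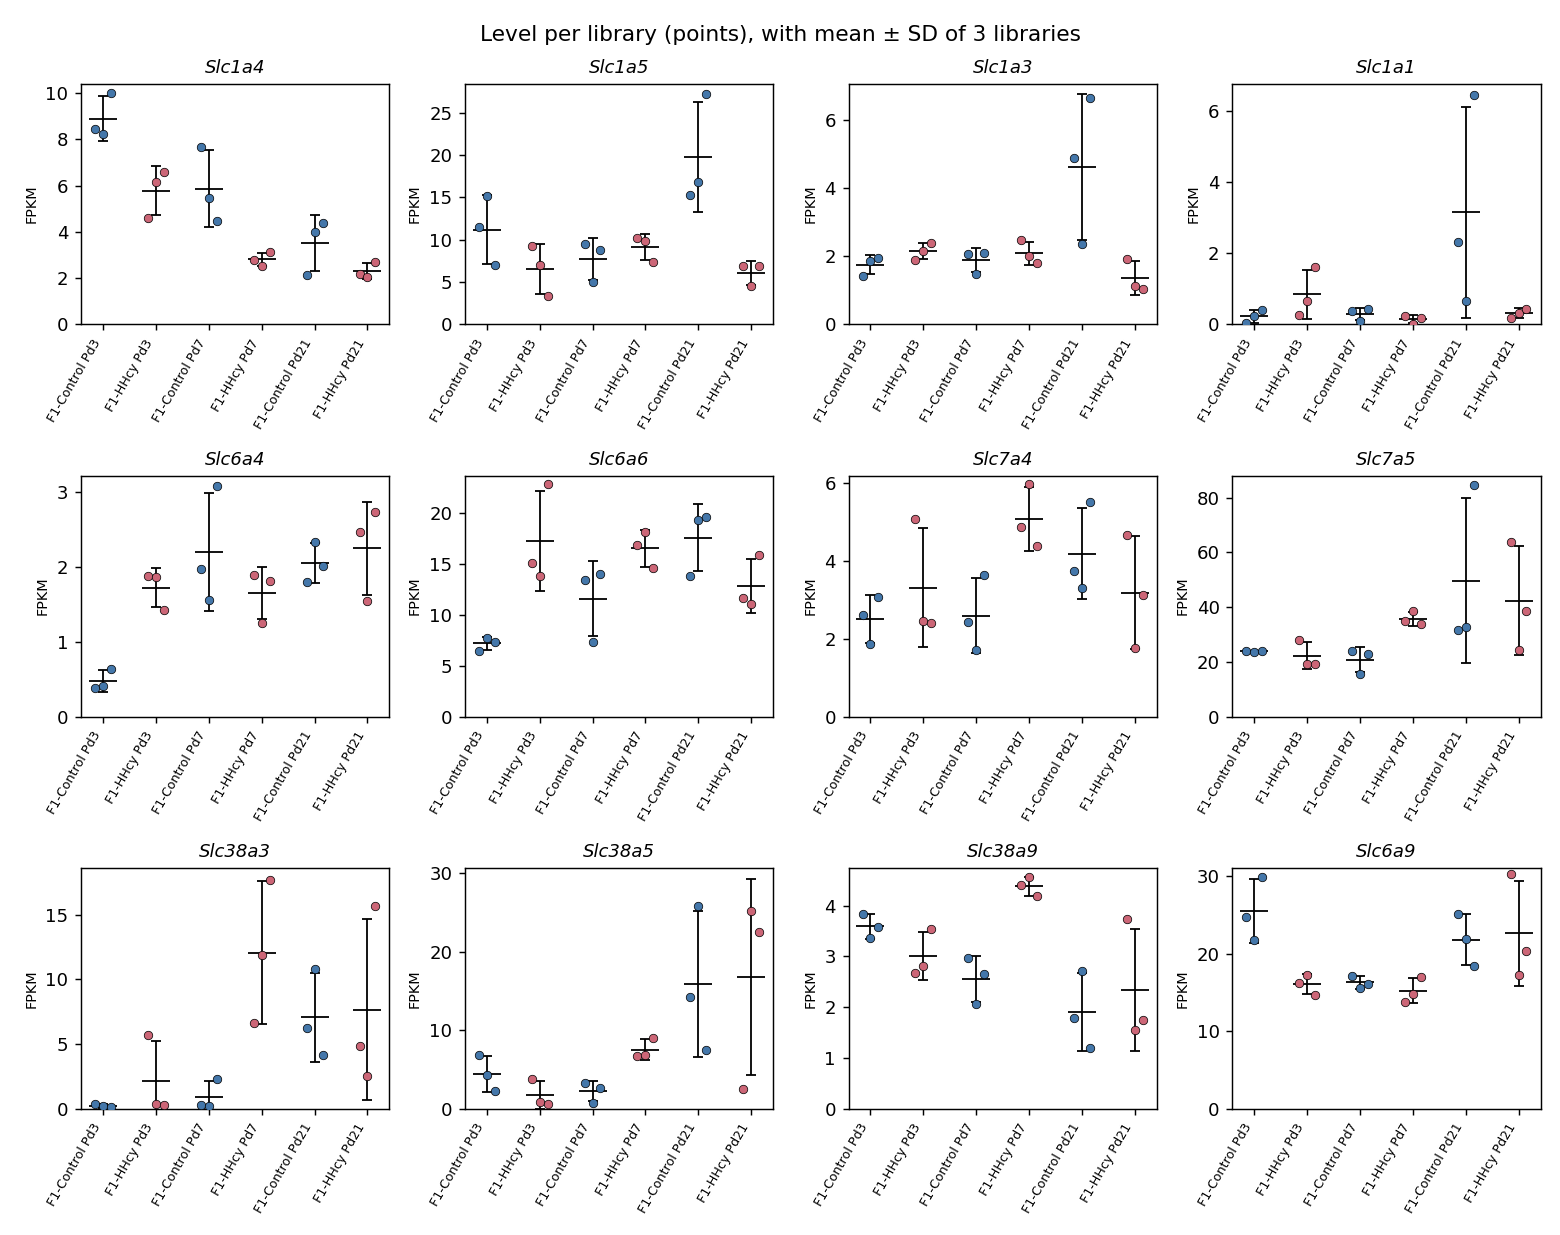
FPKM of 12 members in each library (points, F1-Control in blue, F1-HHcy in red) with the mean and SD of 3 libraries (bars), chosen after the values were seen. Slc6a4 and Slc6a6 are low in the F1-Control libraries of Pd3, Slc38a3 and Slc7a5 are higher in F1-HHcy at Pd7, and Slc1a5 is high in F1-Control at Pd21.

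Among the Slc6 carriers of taurine and creatine, Slc6a6 (chromosome 6, 91684053 to 91759066, plus strand), the taurine transporter, measured 6.47, 7.75 and 7.36 FPKM in F1-Control and 15.1, 13.8 and 22.9 FPKM in F1-HHcy at Pd3. Every F1-HHcy library was above every F1-Control library, and Slc6a6 rose (log2 fold change 1.13 ± 0.19 (SE), limma adjusted p = 0.0398). Its call held only without F1-HHcy replicate 3, and was lost without any other library, with log2 fold changes of 0.92 to 1.26 and adjusted p up to 0.201 (limma). Oocyte, granulosa, stroma and endothelium sums were higher in the same F1-HHcy libraries, although Ddx4, Dazl, Sohlh1 and Kitl of these lists were lower. The part of these cells in the values of Slc6a6 was not tested. At Pd7 the values were 13.5, 7.33 and 14 against 16.9, 18.2 and 14.6 FPKM, without overlap (log2 fold change 0.52 ± 0.23 (SE), limma adjusted p = 0.155), and at Pd21 13.8, 19.4 and 19.7 against 11.7, 11.1 and 15.9 FPKM, with overlap. Slc6a8, the creatine transporter, was at 9.2, 9.95 and 11.2 FPKM in F1-Control and 8.1, 6.41 and 6.5 FPKM in F1-HHcy at Pd21, did not overlap and did not pass (log2 fold change -0.47 ± 0.16 (SE), limma adjusted p = 0.385). Exons of Slc6a6 overlap those of a gene on the opposite strand, whose reads cannot be told apart unless strand was used in counting, which is not stated.

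Slc6a4 (chromosome 11, 76998603 to 77032340, plus strand), the serotonin transporter, is the single monoamine carrier of the Slc6 family that was tested. At Pd3 it was near the filter, at 0.383, 0.406 and 0.643 FPKM in F1-Control and 1.88, 1.87 and 1.43 FPKM in F1-HHcy, and the lowest F1-HHcy library lay above the highest F1-Control library. Slc6a4 rose (log2 fold change 0.88 ± 0.14 (SE), limma adjusted p = 0.0338), while its mean FPKM was 3.61 times that of F1-Control. With limma-voom on the recovered fragments it did not pass (1.87, limma adjusted p = 0.0505). As with Slc6a6, only leaving out F1-HHcy replicate 3 kept the call (log2 fold changes 0.84 to 0.96, adjusted p up to 0.188, limma). The marker sums that were higher in F1-HHcy at Pd3 are the same as for Slc6a6, with their part in Slc6a4 not tested. At Pd7 the 3 F1-Control libraries measured 1.97, 1.55 and 3.08 and the F1-HHcy libraries 1.89, 1.26 and 1.82 FPKM, which overlap.

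Slc6a9, the glycine transporter GlyT1, is the most abundant Slc6 member by the mean over the 18 libraries. In F1-HHcy, Slc6a6 had the higher mean at Pd3 (17.3 against 16.1 FPKM) and at Pd7 (16.6 against 15.2 FPKM). Slc6a9 measured 24.8, 21.8 and 29.9 FPKM in F1-Control and 16.2, 17.3 and 14.7 FPKM in F1-HHcy at Pd3, with no overlap and no call (log2 fold change -0.63 ± 0.14 (SE), limma adjusted p = 0.0645), although it passed with all 18 libraries in 1 model (-0.63, limma adjusted p = 0.0408). At Pd7 the values of Slc6a9 were 17.2, 15.6 and 16.1 against 13.8, 14.8 and 17 FPKM, which overlap. The neutral amino acid transporter Slc6a15 measured 0.175, 0.264 and 0.277 FPKM in F1-Control at Pd3 and 1.5, 1.87 and 0.77 FPKM in F1-HHcy, all of the second above all of the first, but did not pass (log2 fold change 0.92 ± 0.19 (SE), limma adjusted p = 0.0607), although it did with a pseudocount of 0.1 (2.06, limma adjusted p = 0.0437) and was further from passing with all 18 libraries in 1 model (0.92, limma adjusted p = 0.372). Without F1-HHcy Pd3 replicate 3, Slc6a9 (-0.57, limma adjusted p = 0.0342) and Slc6a15 (1.11, limma adjusted p = 0.0031) passed. Erythroid sums were higher in F1-Control at Pd3 as Slc6a9 was. Among those F1-Control libraries, however, replicate 3 held the most Slc6a9 and the lowest erythroid sum. The part of these cells was not tested. The remaining tested Slc6 members, Slc6a7, Slc6a14 and Slc6a17, had means over the 18 libraries of 2.62, 0.881 and 0.57 FPKM and did not pass in a diet comparison. Without F1-HHcy replicate 3, Slc6a7 (0.53, limma adjusted p = 0.0475) and Slc6a14 passed at Pd3 (-0.70, limma adjusted p = 0.032).

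Cationic amino acid transporters of Slc7 carry arginine and lysine, with Slc7a2 and Slc7a1 the most abundant at means of 8.7 and 5.38 FPKM. Slc7a4, whose own substrate is less certain, was the only one of them to rise. At Pd7 Slc7a4 (chromosome 16, 17572018 to 17583214, minus strand) measured 2.44, 1.72 and 3.64 FPKM in F1-Control and 4.88, 5.98 and 4.38 FPKM in F1-HHcy, with no overlap (log2 fold change 0.78 ± 0.21 (SE), limma adjusted p = 0.0496). The call lay at the threshold, did not hold with a pseudocount of 0.1 (0.99, limma adjusted p = 0.0534) or with all 18 libraries in 1 model (0.78, limma adjusted p = 0.0741), and was lost without any library but F1-Control replicate 3 (log2 fold changes 0.60 to 0.98, adjusted p up to 0.166, limma). Slc7a1 measured 6.07, 4.07 and 5.3 against 6.4, 5.4 and 5.22 FPKM and Slc7a2 13.8, 10.1 and 11.3 against 9.02, 9.05 and 7.62 FPKM at Pd7. Slc7a2 was lower in each F1-HHcy library, without a call. In the same F1-HHcy libraries theca and granulosa sums were higher, and their part in the values of Slc7a4 was not tested. Exons of Slc7a4 overlap P2rx6 on the other strand, and exons of Slc1a1, Slc6a9, Slc7a2, Slc7a7, Slc38a9, Slc38a10 and Slc43a2 also overlap genes on the opposite strand.

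Several Slc7 light chains pair with Slc3a2, and Slc7a5 (chromosome 8, 121881150 to 121907694, minus strand), the light chain LAT1, is among them. It measured 23.9, 15.7 and 22.8 FPKM in F1-Control and 34.7, 38.6 and 33.9 FPKM in F1-HHcy at Pd7, each of the second above each of the first. It rose (log2 fold change 0.77 ± 0.17 (SE), limma adjusted p = 0.0271), did not pass with all 18 libraries in 1 model (0.77, limma adjusted p = 0.123), and lost the call without any 1 of the 3 F1-HHcy libraries (log2 fold changes 0.59 to 0.88, adjusted p up to 0.0965, limma). Values at Pd21 were 31.6, 32.9 and 84.6 against 63.9, 24.5 and 38.7 FPKM, widely spread in both groups, with the highest in F1-Control replicate 3. Slc7a8 (LAT2) measured 2.05, 1.56 and 2.84 FPKM in F1-Control and 3.58, 3.17 and 5.66 FPKM in F1-HHcy at Pd7, with no overlap and no call (log2 fold change 0.69 ± 0.22 (SE), limma adjusted p = 0.0771), and passed with all 18 libraries in 1 model (0.69, limma adjusted p = 0.0449). Theca and granulosa sums were higher in the same F1-HHcy libraries of Pd7, and their part in the values of Slc7a5 was not tested.

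The heavy chain Slc3a2 measured 9.06, 7.57 and 10.2 FPKM in F1-Control and 9.47, 9.67 and 13.5 FPKM in F1-HHcy at Pd7 and did not pass (log2 fold change 0.25 ± 0.18 (SE), limma adjusted p = 0.362). It did not pass at Pd3 or Pd21 either. Slc3a1 and Cltrn, partner proteins of other carriers, stayed below the filter at 0.045 to 0.655 and 0.0621 to 1.5 FPKM.

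Slc7a11, the cystine carrier, measured 2.33, 1.91 and 1.72 FPKM in F1-Control and 2, 1.95 and 2.32 FPKM in F1-HHcy at Pd7, and did not pass on any day. Its start region is printed with that of Slc7a7, the arginine light chain, as both hold the same motif as Slc1a4. In Slc7a11 (chr3:50443564-50443863, minus strand) the matches begin at -66 and -47, and in Slc7a7 (chr14:54417895-54418194, minus strand) at -141 and -1, with the gene start at 0. Slc7a7 has another start with its own window (chr14:54417653-54417952), not printed here, in which the match TGATGCAA begins at -243.

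Slc7a11 promoter: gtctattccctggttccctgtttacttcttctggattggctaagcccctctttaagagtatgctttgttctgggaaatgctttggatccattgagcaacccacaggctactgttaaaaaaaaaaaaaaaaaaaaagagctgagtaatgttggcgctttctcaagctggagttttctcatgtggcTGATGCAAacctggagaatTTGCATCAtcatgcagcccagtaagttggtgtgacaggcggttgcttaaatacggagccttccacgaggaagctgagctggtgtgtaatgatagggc
Slc7a7 promoter: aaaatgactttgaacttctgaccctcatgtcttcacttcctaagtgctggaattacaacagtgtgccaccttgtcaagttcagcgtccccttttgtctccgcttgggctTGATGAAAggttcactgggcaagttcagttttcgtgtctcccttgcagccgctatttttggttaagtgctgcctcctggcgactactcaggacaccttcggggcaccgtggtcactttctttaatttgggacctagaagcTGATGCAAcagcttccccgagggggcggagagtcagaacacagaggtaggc

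A match is a description of letters only. Slc6a21, below the filter, also held one, and neither Slc7a11 nor Slc7a7 passed in a diet comparison. The narrower form TGATGCAA was found in 3 members (7.32%) and 1.03% of all genes. As members had more windows per gene, no enrichment is read from this or from the shares that follow. Of the other motifs, GGGCGG was in 65.9% of members and 38.2% of all genes, TGANNNNGC in 65.9% and 45%, TATAAA in 12.2% and 15.7%, TGACGTCA in 2.44% and 2.03%, TGACGTCAT, which contains it, in 2.44% and 0.685%, and GTCTAGAC in 0% and 0.248%.

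Some Slc36 proteins move amino acids with protons out of lysosomes or into cells. Slc36a4 had 10.7, 8.59 and 9.67 FPKM in F1-Control and 8.05, 7.72 and 6.31 FPKM in F1-HHcy at Pd7, without overlap and without a call (log2 fold change -0.35 ± 0.15 (SE), limma adjusted p = 0.152). Slc36a1 ranged over 2.08 to 7.99 FPKM, and Slc36a2, at a mean of 0.242 FPKM, stayed below the filter. None of the family passed in a diet comparison.

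Of the 10 tested members of the Slc38 family, 3 rose at Pd7, where 5.05% of all genes did, and nothing particular to the family is read from this. Slc38a3 (chromosome 9, 107650634 to 107669530, minus strand), which takes up glutamine with sodium, measured 0.265, 0.242 and 2.29 FPKM in F1-Control and 6.61, 11.9 and 17.7 FPKM in F1-HHcy. The lowest F1-HHcy library was above the highest F1-Control library, and Slc38a3 rose (log2 fold change 2.83 ± 0.42 (SE), limma adjusted p = 0.00881). Of the 9 diet calls among the members, this one held without each of its 6 libraries in turn, with log2 fold changes of 2.52 to 3.29 and adjusted p up to 0.0426 (limma). At Pd3 it measured 0.355, 0.17 and 0.113 FPKM in F1-Control and 5.7, 0.4 and 0.266 FPKM in F1-HHcy, where replicate 1 stood apart, and that library also had the highest theca sum of Pd3. Theca and granulosa markers were higher in F1-HHcy at Pd7, and their part in this result was not tested.

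Slc38a5 (chromosome X, 8271133 to 8280179, plus strand), a related glutamine carrier, measured 3.27, 0.772 and 2.63 FPKM in F1-Control and 6.73, 6.81 and 9.06 FPKM in F1-HHcy at Pd7, with no overlap. It rose (log2 fold change 1.49 ± 0.30 (SE), limma adjusted p = 0.0207), did not pass with all 18 libraries in 1 model (1.49, limma adjusted p = 0.127), and lost the call without any 1 of the F1-HHcy libraries (log2 fold changes 1.10 to 1.74, adjusted p up to 0.0719, limma). At Pd3 the direction of the means was the other way, 6.81, 4.29 and 2.21 against 3.81, 0.791 and 0.575 FPKM, with overlap and no call (log2 fold change -1.10 ± 0.48 (SE), limma adjusted p = 0.238). Among the F1-Control libraries of Pd3, replicate 1 held the most Slc38a5 and the highest erythroid sum, and replicate 3 the least of both. The part of erythroid RNA in the values of Slc38a5 was not tested. Nor was that of theca and granulosa cells, whose sums were higher in F1-HHcy at Pd7.

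Slc38a9 (chromosome 13, 112660751 to 112738749, plus strand), which senses arginine at the lysosome, measured 2.96, 2.06 and 2.65 FPKM in F1-Control and 4.4, 4.56 and 4.19 FPKM in F1-HHcy at Pd7, and did not overlap. It rose (log2 fold change 0.61 ± 0.15 (SE), limma adjusted p = 0.0411), did not pass with all 18 libraries in 1 model (0.61, limma adjusted p = 0.073), and without any 1 library of the 6 it no longer passed (log2 fold changes 0.50 to 0.69, adjusted p up to 0.153, limma). As with Slc38a3, theca and granulosa sums were higher in the same F1-HHcy libraries, and their part in Slc38a9 was not tested. Slc38a4 measured 15.3, 14.3 and 16.1 FPKM in F1-Control and 11.4, 10.6 and 6.83 FPKM in F1-HHcy at Pd7, where it was lower without a call (log2 fold change -0.64 ± 0.19 (SE), limma adjusted p = 0.0611), whereas at Pd3 it was higher, 8.78, 11.7 and 9.31 against 15.5, 16.6 and 13.1 FPKM (log2 fold change 0.56 ± 0.14 (SE), limma adjusted p = 0.0906), and passed there without F1-HHcy replicate 3 (0.65, limma adjusted p = 0.0231). At Pd7 it passed with all 18 libraries in 1 model (-0.64, limma adjusted p = 0.0373). Slc38a2, the most abundant member of all, measured 30.8, 45.1 and 35.8 FPKM in F1-Control and 61.7, 45.1 and 64.6 FPKM in F1-HHcy at Pd3, where the highest F1-Control and the lowest F1-HHcy library differed by less than the rounding. At Pd7 it measured 38.9, 35.3 and 49 against 51.8, 49.6 and 65.5 FPKM. Neither difference passed, although that of Pd3 did with all 18 libraries in 1 model (0.60, limma adjusted p = 0.0433). Slc38a1 and Slc38a10 ranged over 7.41 to 14.4 and 19.6 to 32.7 FPKM and did not pass in a diet comparison.

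Slc43 carries large neutral amino acids and, in Slc43a3, purine bases. Slc43a3 measured 21.8, 21.2 and 17.7 FPKM in F1-Control and 26, 26.2 and 15.8 FPKM in F1-HHcy at Pd3, overlapping, and was the most abundant of the family. Slc43a1 measured 8.91, 7.89 and 3.91 FPKM in F1-Control and 2.89, 3.29 and 2.06 FPKM in F1-HHcy on that day, with no overlap and no call (log2 fold change -1.03 ± 0.28 (SE), limma adjusted p = 0.104), and passed with all 18 libraries in 1 model (-1.03, limma adjusted p = 0.0384). Its F1-Control values were highest in the library with the highest erythroid sum and lowest in the one with the lowest, and the part of erythroid RNA was not tested. Slc43a2 ranged over 0.676 to 2.09 FPKM and did not pass.

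Between Pd3 and Pd7 in F1-Control, both in batch 1, 4 members rose and 1 fell, beside 6.84% of all genes that rose and 6.46% that fell. Slc6a15 went from 0.175, 0.264 and 0.277 to 2.18, 1.79 and 2.68 FPKM (log2 fold change 1.37 ± 0.13 (SE), limma adjusted p = 0.00121), and Slc6a4 from 0.383, 0.406 and 0.643 to 1.97, 1.55 and 3.08 FPKM (log2 fold change 1.09 ± 0.18 (SE), limma adjusted p = 0.0103). Slc38a8 and Slc38a4 were the others that rose (log2 fold changes 0.58 and 0.58), and Slc6a9 fell (log2 fold change -0.60 ± 0.14 (SE), limma adjusted p = 0.0273). With the replicate number as a block, 2 members fell rather than 1, Slc43a1 being the other (log2 fold change -1.03, limma adjusted p = 0.0186 with the block and 0.0720 without). That these numbers pair the libraries was read from the same values and is not in the labels. Nothing is therefore drawn from the added call. Slc6a15 kept its call without each of the 6 libraries, but in 1 model of all 18 libraries neither Slc6a15 (1.37, limma adjusted p = 0.117) nor Slc38a4 passed (0.58, limma adjusted p = 0.055). With no filter on low values, only Slc6a15 of the 5 passed. The calls were lost for Slc6a4 without F1-Control Pd3 replicate 1 or 2 (log2 fold changes 0.90 to 1.24), for Slc38a8 without F1-Control Pd3 replicate 1 or 2, or F1-Control Pd7 replicate 3 (0.51 to 0.67), for Slc38a4 without F1-Control Pd3 replicate 1, 2 or 3, or F1-Control Pd7 replicate 1 or 3 (0.50 to 0.69) and for Slc6a9 without F1-Control Pd3 replicate 1 or 3, or F1-Control Pd7 replicate 3 (-0.71 to -0.49). These comparisons share the F1-Control Pd3 libraries with the diet comparison at Pd3, in which the same 3 libraries gave log2 fold changes of 0.92 for Slc6a15, 0.88 for Slc6a4, 0.50 for Slc38a8, 0.56 for Slc38a4 and -0.63 for Slc6a9. Markers moved between these days too. In limma, 7 of 10 granulosa markers rose and 1 fell, 6 of 12 oocyte markers rose and 2 fell, and 4 of 5 stroma, 5 of 5 smooth muscle, 4 of 6 endothelium, 2 of 7 theca, 3 of 5 tested adipocyte and 1 of 5 tested macrophage markers rose. Of the 7 erythroid markers 0 passed. The part of these cells in the values of the 5 members was not tested.

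Between Pd7 and Pd21 in F1-Control, where age and batch cannot be told apart, 7 members were higher and 3 lower, beside 13.5% and 7.43% of all genes. Slc38a4 went from 15.3, 14.3 and 16.1 to 4.51, 5.57 and 7.94 FPKM (log2 fold change -1.24 ± 0.19 (SE), limma adjusted p = 0.0042). Slc38a5 went from 3.27, 0.772 and 2.63 to 14.3, 25.9 and 7.53 FPKM (log2 fold change 2.33 ± 0.44 (SE), limma adjusted p = 0.00861), and Slc38a3 from 0.265, 0.242 and 2.29 to 6.26, 10.8 and 4.11 FPKM (log2 fold change 2.14 ± 0.42 (SE), limma adjusted p = 0.01). The other higher members were Slc1a5, Slc7a8, Slc7a7, Slc6a17 and Slc38a10, and the other lower ones Slc7a2 and Slc36a4. Slc38a3, Slc38a4, Slc38a5 and Slc1a5 kept their calls without each of the 6 libraries. This comparison shares its F1-Control libraries with the diet comparisons at Pd7 and Pd21, so its results are not separate from those. The diet log2 fold changes were 2.83 for Slc38a3 and 1.49 for Slc38a5 at Pd7, and -1.52 for Slc1a5 at Pd21. The call of Slc7a8 was lost without F1-Control Pd7 replicate 1 (log2 fold changes 0.84 to 1.15), that of Slc7a2 without F1-Control Pd21 replicate 1, or F1-Control Pd7 replicate 1 (-0.89 to -0.68), that of Slc7a7 without F1-Control Pd21 replicate 1 or 2, or F1-Control Pd7 replicate 1, 2 or 3 (0.50 to 0.69) and that of Slc36a4 without F1-Control Pd21 replicate 1 or 2, or F1-Control Pd7 replicate 1, 2 or 3 (-0.94 to -0.55). Slc6a17 (0.50 to 0.75) and Slc38a10 (0.38 to 0.53) lost it without any 1 of the 6. Slc6a17 did not pass with a pseudocount of 0.1 either (1.56, limma adjusted p = 0.06), nor Slc38a10 with median-ratio scaling (0.44, limma adjusted p = 0.051) or limma-voom (0.48, limma adjusted p = 0.056). With the filter on the 6 libraries compared, Slc6a17 was no longer called. It reached 1 FPKM in only 4 of the 18 libraries, F1-Control Pd21 replicates 1 and 3 among them. With no filter on low values, only Slc7a2 and Slc38a4 of the 10 kept their calls. Slc3a2 was higher as well (log2 fold change 0.80 ± 0.17 (SE), limma adjusted p = 0.0126). Of the multiciliated markers 7 of 7 tested, and of the oviduct markers 1 of 4, were higher at Pd21 as well. So were 7 of 10 granulosa, 2 of 7 theca and 3 of 5 tested adipocyte markers, while 5 of 7 erythroid, 2 of 6 surface epithelium, 2 of 5 granulocyte and 1 of 4 oviduct markers were lower, and of 12 oocyte markers 2 were higher and 3 lower. Their part in these values, that of granulosa cells in Slc38a3 included, was not tested.

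Whether the diet effect differed between days was tested in 1 model of all 18 libraries. Between Pd3 and Pd7, 0 members differed by limma, the 1 tool used for these differences, where 0.411% of all genes did, and 11 members had an unadjusted p under 0.05, beside 13.8% of all genes. Between Pd3 and Pd21, 4 members differed, beside 4.59% of all genes (7 at an unadjusted p under 0.05, beside 16.1%), namely Slc6a6 (difference of log2 fold changes -1.55 ± 0.32 (SE), limma adjusted p = 0.00797), Slc1a3 (difference of log2 fold changes -1.39 ± 0.33 (SE), limma adjusted p = 0.0194), Slc1a1 (difference of log2 fold changes -1.93 ± 0.52 (SE), limma adjusted p = 0.0436) and Slc6a8 (difference of log2 fold changes -0.82 ± 0.22 (SE), limma adjusted p = 0.0451). Between Pd7 and Pd21, 2 differed, beside 3.89% (10 at an unadjusted p under 0.05, beside 19.4%), Slc1a3 (difference of log2 fold changes -1.29 ± 0.33 (SE), limma adjusted p = 0.0345) and Slc1a5 (difference of log2 fold changes -1.77 ± 0.46 (SE), limma adjusted p = 0.0373). Slc1a1 entered the test by 3 libraries at 1 FPKM or more, F1-Control Pd21 replicates 1 and 3 and F1-HHcy Pd3 replicate 3, which lie on the 2 sides of its difference between Pd3 and Pd21. No support is drawn from that difference. With no filter on low values that difference did not pass (-1.93, limma adjusted p = 0.0988), and of all 6 calls only that of Slc6a6 did. Slc6a6 also kept its call without each of 12 libraries. Slc1a3 lost it between Pd3 and Pd21 without F1-Control Pd3 replicate 1, or F1-HHcy Pd21 replicate 2 or 3 (-1.72 to -1.13), and between Pd7 and Pd21 without F1-Control Pd21 replicate 1 or 3, F1-Control Pd7 replicate 1 or 2, F1-HHcy Pd21 replicate 2 or 3, or F1-HHcy Pd7 replicate 1 or 2 (-1.62 to -1.03). Slc1a1 lost it without F1-Control Pd21 replicate 1 or 3, F1-Control Pd3 replicate 1, 2 or 3, F1-HHcy Pd21 replicate 1, 2 or 3, or F1-HHcy Pd3 replicate 2 or 3 (-2.46 to -1.38), Slc6a8 without F1-Control Pd21 replicate 1, 2 or 3, F1-Control Pd3 replicate 1 or 2, F1-HHcy Pd21 replicate 2 or 3, or F1-HHcy Pd3 replicate 1 or 2 (-0.95 to -0.70) and Slc1a5 without F1-Control Pd21 replicate 3, F1-Control Pd7 replicate 2, F1-HHcy Pd21 replicate 2 or 3, or F1-HHcy Pd7 replicate 1 or 2 (-1.92 to -1.51). Pd21 is the other batch, while each diet effect lies within 1 batch. The diet effect of Slc38a3, past the threshold at Pd7 alone, differed from that at Pd21 by -2.95 without a call (limma adjusted p = 0.0698).

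Genes around the transporters were taken from lists for other carriers, sensing and the amino acid response. Of 5 tested carriers outside the 6 families, none passed, with Slc16a10, an aromatic amino acid carrier, at 2.57, 3.14 and 1.54 FPKM in F1-Control and 0.754, 0.902 and 0.709 FPKM in F1-HHcy at Pd3 (log2 fold change -0.91 ± 0.19 (SE), limma adjusted p = 0.0632). Of 8 mitochondrial carriers none passed, and Slc25a38, which brings glycine into mitochondria for heme synthesis, had the smallest p (log2 fold change -0.61 ± 0.12 (SE), limma adjusted p = 0.0606) with 7.44, 6.49 and 6.77 against 4.07, 4.68 and 3.82 FPKM. Both were higher in each F1-Control library of Pd3, as the erythroid sums were, whose part was not tested. Of 24 genes that sense amino acids upstream of mTORC1, 2 fell at Pd7, where 5.48% of all genes fell, Rragd from 10.04, 6.86 and 7.48 to 4.74, 4.96 and 4.03 FPKM (log2 fold change -0.70 ± 0.17 (SE), limma adjusted p = 0.0372) and Lamtor1 from 60.3, 95.7 and 68.5 to 43.7, 40.9 and 50.03 FPKM (log2 fold change -0.70 ± 0.18 (SE), limma adjusted p = 0.0446). Rragd lost the call without F1-Control Pd7 replicate 1, or F1-HHcy Pd7 replicate 1, 2 or 3 (-0.80 to -0.55), and Lamtor1 without any 1 of the 6 libraries (-0.84 to -0.51) and with median-ratio scaling (-0.72, limma adjusted p = 0.0679).

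The 15 tested genes of the amino acid response through ATF4 also held 2 that fell at Pd7, beside the same 5.48% of all genes. Phgdh, the first enzyme of serine synthesis, measured 67.8, 89.3 and 76.1 FPKM in F1-Control and 42, 39.5 and 50.5 FPKM in F1-HHcy, with no overlap (log2 fold change -0.81 ± 0.16 (SE), limma adjusted p = 0.0171). Pycr1, of proline synthesis, measured 4.49, 5.05 and 4.1 against 2.72, 2.41 and 2.58 FPKM (log2 fold change -0.63 ± 0.14 (SE), limma adjusted p = 0.0297). Phgdh lost the call without F1-HHcy Pd7 replicate 1 or 2 (-0.91 to -0.70), and Pycr1 without F1-Control Pd7 replicate 1 or 2, or F1-HHcy Pd7 replicate 1, 2 or 3 (-0.69 to -0.57). In the same comparison as Rragd, Lamtor1, Phgdh and Pycr1, oocyte, surface epithelium, erythroid and oviduct markers moved as given with Slc1a4. Their part in the values of these genes was not tested. None of the lists of genes around the transporters had a gene past the threshold at Pd3 or Pd21. Atf3, of the ATF4 list, measured 4.21, 16.6 and 8.14 FPKM in F1-Control and 6.98, 2.1 and 137 FPKM in F1-HHcy at Pd3 (log2 fold change 0.68 ± 1.29 (SE), limma adjusted p = 0.788), so that F1-HHcy replicate 3 stood apart. Without that library, Slc6a4, Slc6a6, Slc6a7, Slc6a15 and Slc38a4 rose at Pd3, and Slc1a4, Slc6a9 and Slc6a14 fell. The share of all genes called without it is not given here, so nothing is read from the number of members. Median log2 fold changes at Pd7 were -0.11 for the ATF4 list and -0.08 for the sensing list, beside -0.01 over all tested genes.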

How the data were processed

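Ovary libraries of 6 groups were compared. Values deposited by the authors, 1 for each gene symbol in each file, are FPKM as read here from the values, since whole fragments could be recovered for 99.9% of 27294 genes (tolerance 0.02). The submitters' processing notes name FastQC 0.11.9, Trimmomatic 0.39, STAR 2.7.9a, featureCounts 2.0.1 and DESeq2 1.36.0, without roles, and the build GRCm38. By the labels, libraries were stranded and poly-A selected. Use of strand in counting is not stated.

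Genes that reached 1 FPKM in 3 or more of 18 libraries were compared with limma 3.58.1 (trend) in R 4.3.3 on log2(FPKM + 1), per day, with Benjamini-Hochberg adjustment over 14607 genes. The script was tested on simulated data. Python 3.11.15 with pandas 2.3.3 and matplotlib 3.10.9 served for tables and plots. Positions are from GENCODE M21 (GRCm38) and windows around gene starts from RefSeq GRCm38.p6, found for 41 of the 58 members. Alternatives were a pseudocount of 0.1, no filter, a filter on the 6 libraries compared, all 18 libraries in 1 model, median-ratio scaling, limma-voom on recovered fragments, the replicate number as a block, the criterion printed on the study's volcano plots and each library left out. Same-numbered libraries of F1-Control at Pd3 and Pd7 deviated together (correlations of their deviations from the group means 0.119, 0.244 and 0.260, each best matched by its own number). These numbers met a rule that every pair exceed 0.1, as those of the other comparisons did not, and the block takes them as pairs. The pairing was read from the same values that the block then tests. Labels do not say what a number shares, so whether the libraries are paired is not known.

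Members and lists were chosen with earlier results of these data known. Genes were named by a rule: members past the threshold in a diet comparison, the 3 with the smallest p in each diet and age comparison, the 3 with the highest mean in each family, Slc1a5, which the paper shows, the heavy chains and partner proteins, and of each other list the genes past the threshold or the 1 with the smallest p. Slc1a1, Slc1a6, Slc6a7, Slc6a14, Slc6a17, Slc7a7, Slc7a8, Slc7a11, Slc38a8 and Atf3 were described, and the motifs searched, after values were seen.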

Additional observations from a re-analysis of the deposited data

Results flagged for a closer look

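The diet effect of 5 members differed between 2 days by the test of that difference in limma. Slc6a6 differed between Pd3 and Pd21 by -1.55 on the log2 scale, higher in F1-HHcy at Pd3 (1.13) and lower without a call at Pd21 (-0.42). Slc1a1 differed between those days by -1.93, with 0.53 at Pd3 and -1.40 at Pd21, neither past the threshold in the 6 libraries of its day, although the value of Pd21 passed in the model of all 18 libraries in which the difference was tested. It reached 1 FPKM in only 3 libraries, 2 of F1-Control Pd21 and 1 of F1-HHcy Pd3, and the difference did not pass with no filter on low values. Slc1a1 thus entered the test through the groups that make its difference, and no support is drawn from it. Slc1a3 differed by -1.39 between Pd3 and Pd21 and by -1.29 between Pd7 and Pd21, with 0.20, 0.10 and -1.19 on the 3 days. Slc6a8 differed by -0.82 between Pd3 and Pd21. Slc1a5 differed by -1.77 between Pd7 and Pd21, with 0.25 and -1.52. Pd21 is labelled as another batch than Pd3 and Pd7, although each diet effect lies within 1 batch. A part of the oviduct, multiciliated and surface epithelium markers of the F1-Control libraries of Pd21 in these differences was not tested. Groups of 3 libraries were not searched by rule for single libraries far from the rest.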

How the results depend on the processing

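Each named result recomputed (called, or near a call, in a diet, age or between-day comparison) kept its direction under each alternative and without each library. The counts of members past the threshold moved more. At Pd3, 2 rose in the reported comparison and 0 fell. The number that rose was 0 with no filter, 1 with limma-voom and 4 by the criterion of the volcano plots, and the number that fell was 2 with all 18 libraries and 2 by that criterion. At Pd7 (5 rose, 1 fell), 0 rose and 0 fell with no filter, 2 rose and 2 fell with all 18 libraries, and 2 fell by the criterion of the plots. At Pd21 (1 fell), 0 fell with no filter, 3 with all 18 libraries and 3 by that criterion. With 1 library left out, the number that rose at Pd3 ranged from 0 to 5 and that fell from 0 to 3, at Pd7 from 1 to 4 and from 0 to 1, and at Pd21 0 rose and 0 to 3 fell.

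From Pd3 to Pd7 in F1-Control (4 rose, 1 fell), 1 rose and 1 fell, another than reported, with no filter, 2 rose and 2 fell with all 18 libraries and 3 fell by the criterion of the plots, with 1 to 5 and 0 to 5 when 1 library was left out. From Pd7 to Pd21 (7 and 3), 3 rose with no filter, none of them among the 7, 13 rose and 5 fell with all 18 libraries, and 3 to 6 rose and 1 to 3 fell with 1 library left out. Differences of the diet effect between Pd3 and Pd7 (0) numbered 1 with a pseudocount of 0.1 and 3 with median-ratio scaling, 0 to 2 with 1 library left out. Between Pd3 and Pd21 (4) there was 1 with no filter, 1 to 3 with 1 library left out, and between Pd7 and Pd21 (2) 0 with no filter, 0 to 4 with 1 library left out. Leaving out a library leaves fewer samples, and the causes of the other shifts were not tested. Apart from the criterion of the plots in the diet comparisons, shares of all genes under the alternatives are not given. Nothing particular to the members is therefore read from how these counts moved.

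From Pd3 to Pd7 the replicate block changed no other call than the 1 reported. Elsewhere, with the block, 0 members rose at Pd3, 4 rose at Pd7 (3 of the 5 reported), and from Pd7 to Pd21 7 rose (4 of the 7 reported) and 2 fell, both reported. Of the differences between Pd3 and Pd21, 3 of 4 remained, without Slc6a8, and between Pd7 and Pd21 there were 3, the 2 reported and Slc7a8. Same-numbered libraries of the 2 diets did not deviate together (correlations of -0.31 to 0.09 over 9 pairs, 2 of 9 best matched by their own number), nor did those of F1-Control at Pd7 and Pd21 (-0.27 to 0.04, 0 of 3), so in these comparisons the libraries share only a number. Median-ratio scaling moved the median of all genes by at most 0.06 on the log2 scale. Low members limit precision, as Slc6a4 rested on 37 to 310 fragments per library and Slc1a1 on 3 to 942.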

Other observations

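Of the 22 members below the filter, 4 passed 1 FPKM in some library. F1-Control Pd21 replicate 3, the library with the most Fabp4, held the highest Slc36a2 (1.70 FPKM), Slc7a10 (1.84 FPKM) and Slc6a2 (1.46 FPKM) of the 18 libraries, and was the only library at 1 FPKM or more for each of the 3. Slc6a11 reached 1 FPKM in 2 libraries, 1.28 FPKM in F1-HHcy Pd7 replicate 3 and 1.10 FPKM in F1-Control Pd21 replicate 2.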
